A study of Mus musculus with 18 samples.

Results

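The glycolysis and hypoxia response genes are a set of 37 mouse genes chosen by name for their known roles in breaking down glucose and in the response to low oxygen. A member was represented by every array probe that carries its gene symbol, and values are given for the probe with the highest mean in the authors' log2 table. Of the 37 genes, 33 had a probe, among 19057 genes with a probe on the array. Of those 33, 27 were detected on at least 3 of the 18 arrays and were tested, among 8962 tested genes. Hk2, Gpi1, Eno1 and G6pdx matched no probe and are not analysed here.

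Messenger RNA was measured on 18 Illumina mouse bead arrays in cultured mast cells from female mice, with Dnmt3a intact (wild type) or absent (knockout). Dnmt3a is an enzyme that sets new DNA methylation. The cells were untreated, or had been stimulated for 4 h or 24 h with IgE and antigen, which activate mast cells through their IgE receptor. Each genotype had 3 cultures, and every culture gave 1 array per condition, so each of the 6 groups had 3 arrays. The cultures carry the numbers 6, 8 and 9 in wild type and 3, 4 and 6 in knockout, and all samples carry the mark of 5 weeks. Whether this is the age of the mice or of the cultures, how the gene was deleted, and whether a culture came from 1 mouse are not stated in the labels. The p-values therefore measure only the spread between these cultures.

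Glycolysis turns glucose into pyruvate in a chain of enzyme steps, and lactate dehydrogenase turns pyruvate into lactate. When oxygen is low, prolyl hydroxylases no longer mark the transcription factor HIF for degradation, and HIF raises many glycolytic genes together with genes of blood vessel growth, mitochondrial clearance and collagen making. Immune cells are also known to raise glycolysis when they are activated in normal oxygen, and mast cells use it during activation.

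The arrays lay on 3 slides, with wild-type culture 6 and knockout culture 3 on slide 1, wild-type 8 and knockout 4 on slide 2, and wild-type 9 and knockout 6 on slide 3. Median probe signals ran from 93.4 to 159, and 28.7% to 33.8% of an array's probes were detected, that is, above a limit set from probes of receptors that mast cells are not known to express. The 3 probes for Dnmt3a, with signals from 83.1 to 150, were above the limit on 0 of 18 arrays, wild type included, so that the array did not check the genotype. The 12 mast cell markers listed, among them Kit, Fcer1a and Cpa3, were all kept, 10 of them on every array. Of the T and NK cell markers 0 of 6 with a probe were kept, and of the B cell markers 0 of 2. Adgre1 and Lyz2 were kept of 8 macrophage markers, and Elane of 7 neutrophil markers. Of 4 basophil markers 3 were kept (Mcpt8, Prss34 and Cd200r3). The summed raw intensity of all 4, not scaled between arrays, ran from 5659 to 11120, beside 102000 to 193600 for the 12 mast cell markers. Itga2b and Gp9 were kept of 4 megakaryocyte markers, Hba-a1 and Klf1 of 4 erythroid markers, and Siglech of 4 dendritic cell markers. Levels are bulk RNA, in which fewer cells of a type and less RNA per cell cannot be told apart.

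After 24 h of stimulation 4 of 12 tested genes of the glycolytic chain and 2 genes around it rose, and after 4 h Ndrg1 rose most, while no tested member passed the test between knockout and wild-type cells. Over both genotypes, 6 of the 27 tested members rose at 24 h and 0 fell (limma, adjusted p under 0.05), while 8% of all tested genes passed in either direction and 3.51% rose. The members that rose were Pfkfb4, Tpi1, Gapdh, Pgk1, Pgam1 and Pgm1. The median log2 change of the 27 members was 0.55, beside -0.01 over all tested genes, and 23 members were above 0, which is 85.2% beside 48.4% of all tested genes. With the 6 members that were detected on too few arrays included, the median of the 33 was 0.28.

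The count depended on how the spread was estimated. With the slide as a block it was 13, with 20.2% of all genes passing, and with the replicate block (the culture) it was 12, with 19.4% of all genes passing. With the slide as a block Pfkl, Pfkm, Pkm, Ldha, Pdk1, Ndrg1 and Egln3 joined the other 6, and with the replicate block the same genes joined except Ndrg1. Egln3 was kept only through 5 arrays on which it was high, so it had to differ, and without it the counts with these blocks were 12 and 11 of 26 members. Without wild-type culture 8 or without knockout culture 6 the count fell to 0, with 2.5% and 2.96% of all genes passing. In each case 11 members were at an unadjusted p under 0.05. The count was 1 without wild-type culture 9 or knockout culture 4, with 4.5% and 4.64% of all genes passing. It was 3 without wild-type culture 6 (3.21%) and 4 without knockout culture 3 (3.4%). Those 4 were Tpi1, Pgk1, Pdk1 and Egln3, of which Egln3 had to differ. In 12 of the 27 members the level at 24 h was above untreated in all 6 cultures, which held for 11.3% of all tested genes, and 0 members were lower in all 6, beside 13.5%. Without Egln3, which was below the detection limit on both slide 1 cultures, this was 11 of 26, and the median change of the 26 was 0.50.

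**Figure D1:**
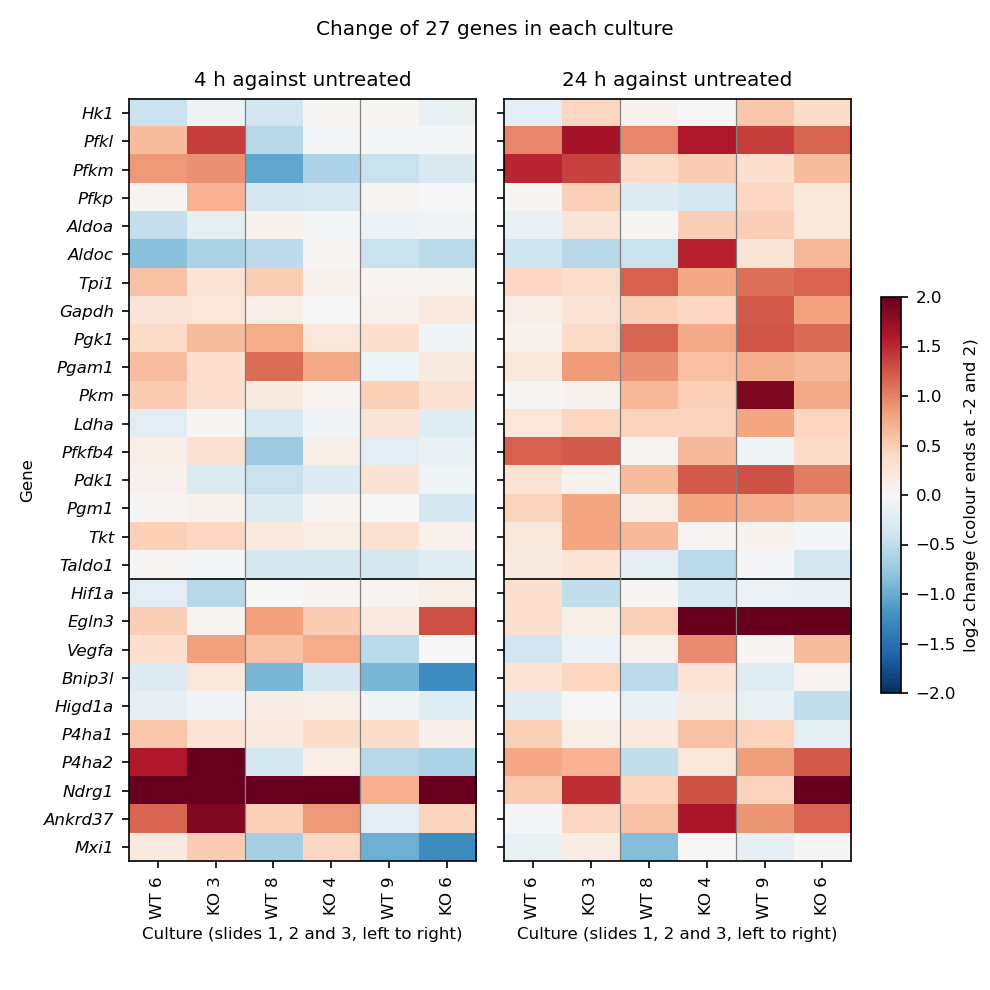
Log2 change of the 27 tested members (rows) in each of the 6 cultures (columns, ordered by slide), 4 h against untreated on the left and 24 h against untreated on the right. Red is higher and blue is lower than untreated, and the colour ends at 2 and -2. At 24 h the glycolytic genes in the upper block are mostly red, and Ndrg1 is the strongest red row at 4 h.

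The enzymes of the glycolytic chain are described first, from the top down. All log2 levels below are normalised probe intensities, listed for wild-type cultures 6, 8 and 9 and then for knockout cultures 3, 4 and 6. All 12 tested genes of the chain were above untreated at 24 h, with a median log2 change of 0.60, and 4 of the 12 passed the test.

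Hexokinase 1 (Hk1), which traps glucose in the cell as glucose phosphate, ran from 8.12 to 9.30 over the 18 arrays. Untreated Hk1 levels were 8.99, 8.97 and 8.74 in wild-type and 8.22, 8.93 and 8.46 in knockout cultures. At 4 h Hk1 was at 8.56, 8.59 and 8.78 in wild-type and 8.12, 8.97 and 8.30 in knockout cultures. At 24 h Hk1 reached 8.80, 9.04 and 9.30 in wild-type and 8.65, 8.95 and 8.82 in knockout cultures. The groups overlapped, and the 24 h change over both genotypes was 0.21 ± 0.15 (SE, adjusted p = 0.425). Against 4 h the 24 h level was higher by 0.37 ± 0.15, which passed only with a block (adjusted p = 0.0967 without, 0.0375 with the slide and 0.0211 with the replicate block).

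Phosphofructokinase commits the sugar to glycolysis, and its liver form Pfkl had the widest gap between slides of any member. Untreated levels of Pfkl were 7.81, 9.04 and 9.74 in wild-type and 7.52, 9.09 and 10.07 in knockout cultures. At 4 h Pfkl stood at 8.45, 8.49 and 9.70 in wild-type and 8.91, 9.07 and 10.03 in knockout cultures. At 24 h Pfkl stood at 8.78, 10.02 and 11.13 in wild-type and 9.18, 10.71 and 11.24 in knockout cultures. Every culture was higher at 24 h, by 0.97 to 1.66 on the log2 scale, but slide 1 cultures stayed below the untreated level of slide 3 cultures. The mean over the 6 arrays of a slide was 8.44, 9.40 and 10.32 on slides 1, 2 and 3, and only 0.223% of all tested genes had a gap between slides that large. The 24 h change was 1.30 ± 0.51 (SE, 2.46-fold, adjusted p = 0.122 without a block, 0.00101 with the slide as a block and 0.00230 with the replicate block). A second Pfkl probe, detected on 6 arrays, gave a smaller log2 change of 0.34.

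The muscle form Pfkm was also higher in all 6 cultures at 24 h, by 0.32 to 1.53. Untreated Pfkm levels were 7.11, 8.08 and 8.54 in wild-type and 7.15, 8.34 and 8.12 in knockout cultures. At 4 h Pfkm was at 7.99, 7.04 and 8.09 in wild-type and 8.06, 7.73 and 7.83 in knockout cultures. At 24 h Pfkm was at 8.65, 8.46 and 8.86 in wild-type and 8.51, 8.85 and 8.75 in knockout cultures. At 4 h the slide 1 cultures were above untreated and the other 4 below, and every 24 h level was above every 4 h level. The log2 change was 0.79 ± 0.25 against untreated (SE, adjusted p = 0.0618, and 0.0288 with the slide as a block) and 0.89 ± 0.25 against 4 h (adjusted p = 0.0217). The platelet form Pfkp ran from 9.35 to 10.65 over the 18 arrays and changed by 0.09 ± 0.22 at 24 h (SE, adjusted p = 0.833).

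Aldolase splits the sugar, and its A form, Aldoa, moved little in either direction. Untreated Aldoa levels were 11.77, 11.60 and 11.57 in wild-type and 11.64, 11.61 and 11.57 in knockout cultures. At 4 h Aldoa was at 11.30, 11.66 and 11.48 in wild-type and 11.45, 11.59 and 11.50 in knockout cultures. At 24 h Aldoa was at 11.64, 11.61 and 12.06 in wild-type and 11.90, 12.10 and 11.78 in knockout cultures. Its untreated and 24 h levels overlapped, and the change that passed was 24 h against 4 h, at 0.35 ± 0.10 (SE, 1.28-fold, adjusted p = 0.0249). Aldolase C (Aldoc) differed between cultures. Untreated Aldoc was at 9.48, 8.58 and 8.99 in wild-type and 9.26, 8.64 and 8.87 in knockout cultures. At 4 h Aldoc was at 8.65, 8.06 and 8.56 in wild-type and 8.63, 8.67 and 8.33 in knockout cultures. At 24 h Aldoc was at 9.08, 8.13 and 9.24 in wild-type and 8.71, 10.19 and 9.53 in knockout cultures. At 24 h it was above untreated in 3 of 6 cultures, with knockout culture 4 highest, and the change of 0.18 ± 0.25 did not pass (SE, adjusted p = 0.703). Its change from 4 h to 24 h was above 0 in all 6 cultures and passed only with the replicate block (0.66 ± 0.25, adjusted p = 0.0281, beside 0.0687 without).

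Triose phosphate isomerase (Tpi1) interconverts the products of that split, and it rose at 24 h in every culture. Untreated levels of Tpi1 were 11.67, 11.45 and 12.22 in wild-type and 11.81, 12.29 and 12.39 in knockout cultures. At 4 h Tpi1 was at 12.25, 11.94 and 12.26 in wild-type and 12.08, 12.37 and 12.44 in knockout cultures. At 24 h Tpi1 was at 12.08, 12.64 and 13.31 in wild-type and 12.16, 13.05 and 13.56 in knockout cultures. The rise was smallest on slide 1, where both cultures ended below the highest untreated array. The log2 change at 24 h was 0.83 ± 0.24 (SE, 1.78-fold, adjusted p = 0.0423), and 2 further Tpi1 probes gave 0.81 and 0.72. The call was lost in 7 of 14 alternative settings.

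Glyceraldehyde phosphate dehydrogenase (Gapdh), which makes the chain's NADH and is often taken as a constant reference gene, passed the test at 24 h. Untreated Gapdh levels were 12.60, 12.50 and 12.25 in wild-type and 12.63, 12.93 and 12.68 in knockout cultures. At 4 h Gapdh was at 12.86, 12.63 and 12.33 in wild-type and 12.87, 12.94 and 12.87 in knockout cultures. At 24 h Gapdh was at 12.75, 12.97 and 13.47 in wild-type and 12.90, 13.34 and 13.49 in knockout cultures. All 6 cultures were higher at 24 h, by 0.14 to 1.22, with the largest rise in wild-type culture 9, although the groups overlapped. The log2 change was 0.56 ± 0.14 (SE, 1.47-fold, adjusted p = 0.0269). This call was lost in 5 of 14 alternative settings, each with a culture other than wild-type culture 6 left out.

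Phosphoglycerate kinase 1 (Pgk1), which yields the first ATP of the chain, also rose least on slide 1. Untreated Pgk1 levels were 12.01, 11.51 and 11.84 in wild-type and 11.83, 12.35 and 11.96 in knockout cultures. At 4 h Pgk1 was at 12.40, 12.25 and 12.17 in wild-type and 12.47, 12.57 and 11.91 in knockout cultures. At 24 h Pgk1 was at 12.08, 12.68 and 13.09 in wild-type and 12.21, 13.11 and 13.10 in knockout cultures. The slide 1 cultures rose by 0.07 and 0.38 and the other 4 by 0.75 to 1.25. Over both genotypes the log2 change was 0.79 ± 0.20 (SE, 1.73-fold, adjusted p = 0.0242), and 2 further Pgk1 probes gave 0.68 and 0.36. The call was lost in 4 of 14 alternative settings.

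Phosphoglycerate mutase 1 (Pgam1) was the only enzyme of the chain past the threshold at both times. Untreated Pgam1 was at 9.99, 9.54 and 9.93 in wild-type and 9.73, 9.88 and 9.86 in knockout cultures. At 4 h Pgam1 was at 10.61, 10.65 and 9.84 in wild-type and 10.05, 10.64 and 10.05 in knockout cultures. At 24 h Pgam1 was at 10.21, 10.45 and 10.66 in wild-type and 10.58, 10.49 and 10.52 in knockout cultures. Every 24 h level was above every untreated level, which held for 2 of the 27 members (Pgam1 and Ldha) and for 4.98% of all tested genes. The log2 change was 0.66 ± 0.15 at 24 h (SE, 1.58-fold, adjusted p = 0.0177) and 0.48 ± 0.15 at 4 h (1.40-fold, adjusted p = 0.0445), and a second probe gave 0.73 and 0.57. At 4 h wild-type culture 9 did not rise, and the 4 h call was lost in 7 of 14 alternative settings. The 24 h call was lost in 3 of 14.

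Pyruvate kinase (Pkm), which yields pyruvate, had its largest change in wild-type culture 9, at 1.86. Untreated Pkm levels were 11.00, 10.95 and 10.76 in wild-type and 11.14, 11.59 and 11.44 in knockout cultures. At 4 h Pkm was at 11.51, 11.13 and 11.24 in wild-type and 11.46, 11.62 and 11.74 in knockout cultures. At 24 h Pkm was at 11.03, 11.62 and 12.62 in wild-type and 11.21, 12.06 and 12.20 in knockout cultures. The slide 1 cultures changed by 0.03 and 0.07, so that the groups overlapped. The log2 change of 0.64 ± 0.22 passed only with a block (SE, adjusted p = 0.0821 without, 0.0356 with the slide and 0.0459 with the replicate block).

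Lactate dehydrogenase A (Ldha), which makes lactate and regenerates NAD for the chain, was higher at 24 h in all 6 cultures. Untreated Ldha was at 12.41, 12.37 and 12.53 in wild-type and 12.30, 12.61 and 12.64 in knockout cultures. At 4 h Ldha was at 12.18, 12.06 and 12.78 in wild-type and 12.33, 12.56 and 12.40 in knockout cultures. At 24 h Ldha was at 12.65, 12.81 and 13.33 in wild-type and 12.72, 13.07 and 13.07 in knockout cultures. Every 24 h array was above every untreated array, and the differences ran from 0.24 to 0.79. Its log2 change was 0.46 ± 0.14 at 24 h against untreated (SE, 1.38-fold, adjusted p = 0.0562, and 0.0116 with the slide as a block) and 0.56 ± 0.14 against 4 h (1.47-fold, adjusted p = 0.0146).

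The flux regulators come next. Pfkfb4 sets the amount of the sugar phosphate that activates phosphofructokinase. Untreated Pfkfb4 levels were 8.86, 9.44 and 9.45 in wild-type and 8.33, 8.92 and 9.01 in knockout cultures. At 4 h Pfkfb4 was at 9.01, 8.70 and 9.25 in wild-type and 8.64, 9.04 and 8.87 in knockout cultures. At 24 h Pfkfb4 was at 10.06, 9.46 and 9.38 in wild-type and 9.55, 9.57 and 9.39 in knockout cultures. Unlike in Pgk1 and Tpi1, the largest rises were those of the slide 1 cultures, at 1.20 and 1.22, while wild-type cultures 8 and 9 changed by 0.02 and -0.07. The log2 change was 0.57 ± 0.16 at 24 h (SE, 1.48-fold, adjusted p = 0.0440) and 0.65 ± 0.16 against 4 h (1.57-fold, adjusted p = 0.0126), where all 6 cultures rose and the groups did not overlap. That last pattern held for Pfkm and Pfkfb4 among the 27 members and for 7.3% of all tested genes. The Pfkfb4 call against untreated was lost in 7 of 14 alternative settings, and that against 4 h in 1. Pfkfb3, a relative of Pfkfb4, was above the detection limit on 0 arrays.

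Pyruvate dehydrogenase kinase 1 (Pdk1), a HIF target that switches pyruvate dehydrogenase off, was near the detection limit in untreated cells and at 4 h. Untreated Pdk1 levels were 6.62, 7.0 and 6.86 in wild-type and 6.89, 7.12 and 7.26 in knockout cultures. At 4 h Pdk1 was at 6.70, 6.56 and 7.16 in wild-type and 6.62, 6.86 and 7.19 in knockout cultures. At 24 h Pdk1 was at 6.89, 7.65 and 8.14 in wild-type and 6.98, 8.35 and 8.29 in knockout cultures. On slides 2 and 3 it was higher by 0.64 to 1.28 at 24 h, and on slide 1 by 0.09 and 0.27. The log2 change at 24 h was 0.76 ± 0.24 against untreated (SE, adjusted p = 0.0615, and 0.00681 with the slide as a block) and 0.87 ± 0.24 against 4 h (adjusted p = 0.0199). Pdk1 was above the detection limit in 2 wild-type and 3 knockout cultures when untreated, in 1 and 2 at 4 h, and in all at 24 h, so both changes rest in part on undetected readings.

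Phosphoglucomutase 1 (Pgm1), which links glycogen to glycolysis, also rose. Untreated Pgm1 was at 10.55, 10.89 and 11.01 in wild-type and 10.52, 11.09 and 11.17 in knockout cultures. At 4 h Pgm1 was at 10.57, 10.62 and 11.02 in wild-type and 10.60, 11.13 and 10.82 in knockout cultures. At 24 h Pgm1 was at 10.99, 11.01 and 11.74 in wild-type and 11.32, 11.88 and 11.81 in knockout cultures. All 6 cultures were higher at 24 h, by 0.12 to 0.79, with the smallest change in wild-type culture 8. The log2 change was 0.58 ± 0.17 against untreated (SE, 1.5-fold, adjusted p = 0.0485), and a second probe gave 0.47. This call was lost in 8 of 14 alternative settings. Pgm2 was detected on 0 arrays.

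In the pentose phosphate pathway, which branches from glycolysis and makes NADPH and ribose, neither tested member passed. Transketolase (Tkt) ran from 10.80 to 11.79 over the 18 arrays and changed by 0.29 ± 0.15 at 24 h (SE, adjusted p = 0.246). Transaldolase (Taldo1) ran from 11.79 to 12.72 and changed by -0.11 ± 0.15 (SE, adjusted p = 0.684). Pgd was detected on 0 arrays.

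**Figure D2:**
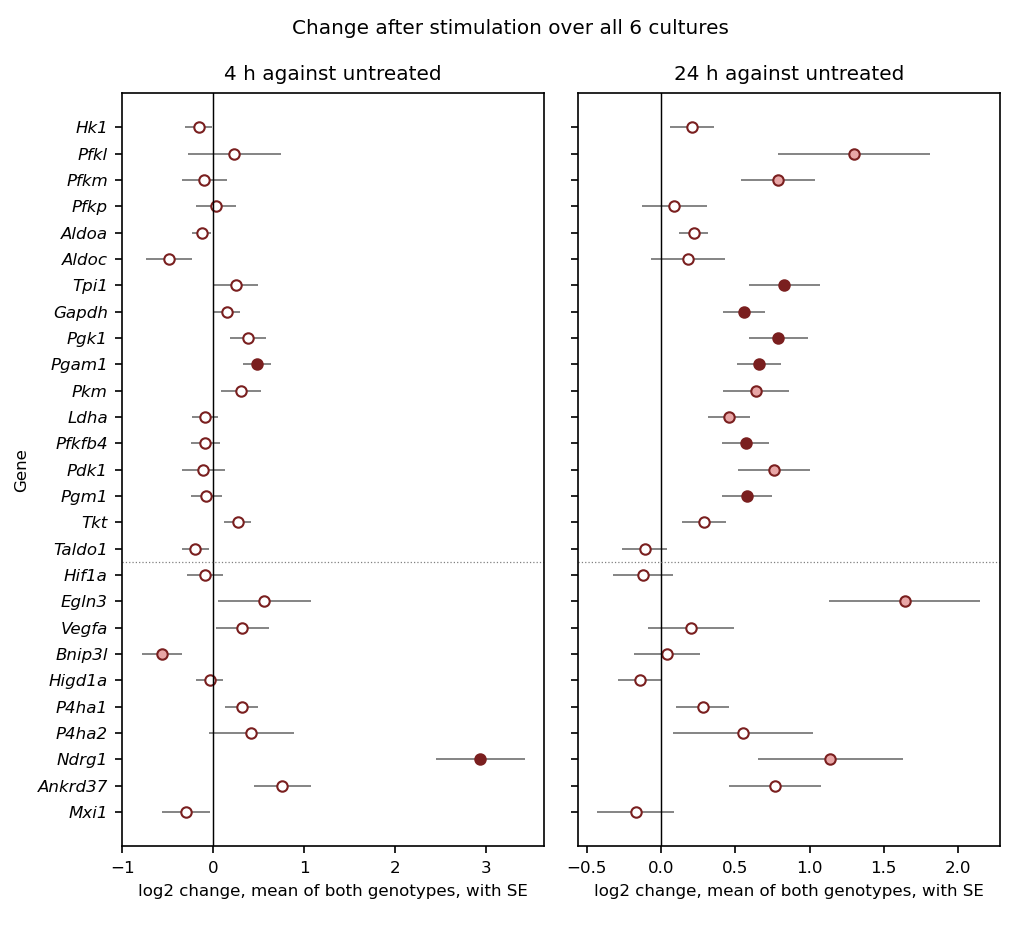
Log2 change with its standard error over both genotypes, 4 h against untreated (left) and 24 h against untreated (right), for the 27 tested members, in limma's fit to 18 arrays. Dark points passed the adjusted p threshold of 0.05 without a block, light red points passed only with the slide as a block, and open points passed in neither. Egln3, a light red point at 24 h, was kept only through arrays on which it was high, so it had to differ. The glycolytic genes above the dotted line lie mostly right of 0 at 24 h, and Ndrg1 stands alone at 4 h.

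At 4 h, 2 of the 27 members rose, Ndrg1 and Pgam1, and 0 fell, while 15.3% of all tested genes passed in either direction and 7.41% rose. The share of members that rose was near that of all genes. The median log2 change of the 27 was 0.03 (-0.01 without Egln3), beside -0.03 over all tested genes, and 14 members were above 0. With the slide as a block the count was 3, with 27.6% of all genes passing, as Bnip3l (lower) joined. With the replicate block it was 4, with 26.3% of all genes passing, as P4ha1 (higher) joined too. Both comparisons with untreated cells use the same 6 untreated arrays.

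Ndrg1 encodes a protein that HIF and cell differentiation are known to raise, and it had the largest change of any member. Untreated Ndrg1 levels were 9.59, 8.70 and 8.95 in wild-type and 8.66, 7.79 and 7.64 in knockout cultures. At 4 h Ndrg1 was at 12.58, 12.33 and 9.65 in wild-type and 12.68, 11.56 and 10.17 in knockout cultures. At 24 h Ndrg1 was at 10.13, 9.14 and 9.41 in wild-type and 10.13, 9.06 and 10.29 in knockout cultures. Every 4 h array was above every untreated array, the only such member of the 27, beside 4.6% of all tested genes. The cultures of slides 1 and 2 reached 11.56 to 12.68 at 4 h, whereas the slide 3 cultures reached 9.65 and 10.17, and wild-type culture 9 rose by only 0.71. The log2 change at 4 h was 2.94 ± 0.49 (SE, 7.66-fold, adjusted p = 0.00228), with a 95% interval from 1.91 to 3.97, and a second probe gave 2.97. This call held in all 14 alternative settings, with log2 changes from 2.64 to 3.38.

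By 24 h Ndrg1 had fallen by 1.80 on the log2 scale from 4 h (SE 0.49, adjusted p = 0.0178). It remained above untreated in all 6 cultures, by 0.44 to 2.65, and this change of 1.14 ± 0.49 passed only with the slide as a block (SE, adjusted p = 0.154 without and 0.0456 with). Knockout culture 6 did not fall between 4 h and 24 h. Within knockout cells Ndrg1 rose 10.8-fold at 4 h (log2 3.44 ± 0.69, adjusted p = 0.0285), the only member of the 27 to pass, beside 0.815% of all tested genes. This call within knockout cells was lost without any of knockout cultures 3, 4 and 6 or without wild-type culture 8. Within wild-type cells the change was 5.42-fold (log2 2.44 ± 0.69, adjusted p = 0.0732) and passed with the slide (0.0151) or the culture (0.0245) as a block, where 9.71% and 8.55% of all tested genes passed. Without a block 0 members passed within wild-type cells at 4 h, with 3 at an unadjusted p under 0.05, beside 1.82% of all tested genes. The difference between the responses of the genotypes was 1 ± 0.97 (SE, adjusted p = 1).

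**Figure D3:**
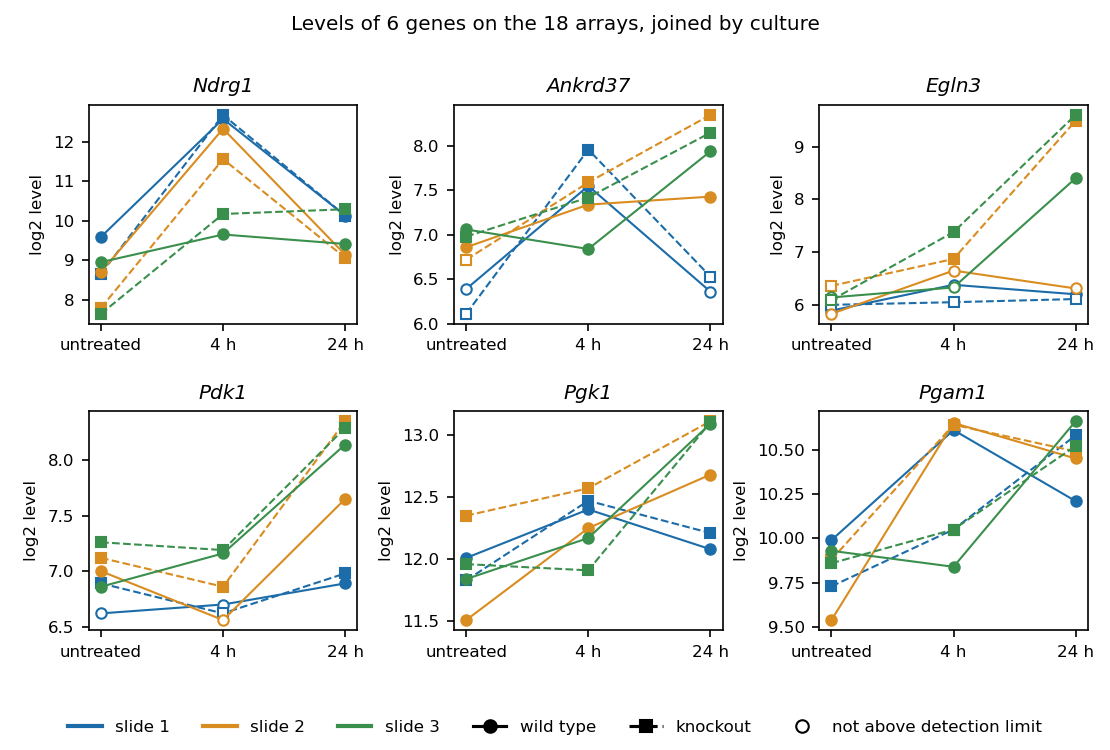
Log2 levels of 6 members on the 18 arrays, joined by culture, with colour for the slide, circles and solid lines for wild type, squares and dashed lines for knockout, and open symbols for arrays on which the probe was not above the detection limit. Ndrg1 peaks at 4 h on slides 1 and 2, and Egln3 is high at 24 h in 3 cultures of slides 2 and 3. Each panel has its own axis.

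The oxygen sensing genes are the prolyl hydroxylases, which mark HIF for degradation, and the HIF subunit itself. Egln3, a prolyl hydroxylase that HIF is known to induce, was not above the detection limit on any untreated array. Untreated readings of Egln3 were 5.89, 5.83 and 6.14 in wild-type and 6.00, 6.36 and 6.09 in knockout cultures. At 4 h Egln3 was at 6.38, 6.65 and 6.33 in wild-type and 6.05, 6.87 and 7.38 in knockout cultures. At 24 h Egln3 was at 6.2, 6.31 and 8.40 in wild-type and 6.11, 9.49 and 9.60 in knockout cultures. It was detected on 5 of 18 arrays, those of knockout cultures 4 and 6 at 4 h and 24 h and of wild-type culture 9 at 24 h. The slide 1 cultures were not above the limit at any time. Because it was tested only through those 5 arrays, it had to differ, and its change is given as a description without a p-value. Egln3 was at least 1.96-fold higher at 24 h over both genotypes. A bound here is the mean at 24 h over the mean, per untreated array, of the probe's own reading or the lowest detected signal, whichever is higher. Within knockout cells Egln3 was at least 3.17-fold higher and within wild-type cells at least 1.21-fold higher. The 2 other Egln3 probes were above the limit on 0 arrays.

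Egln1, the main oxygen sensor of most cells, was above the limit on 2 arrays, both from wild-type cells at 24 h, and was not tested. Hif1a, the oxygen-regulated HIF subunit, ran from 7.86 to 9.14 and changed by -0.09 ± 0.20 at 4 h and -0.12 ± 0.20 at 24 h (SE, adjusted p = 0.783 and 0.755). Its level is that of the messenger RNA, whereas oxygen is known to act on the protein.

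Of the 8 other tested HIF targets, Ndrg1 among them, 0 passed at 24 h without a block, and 2 were at an unadjusted p under 0.05. Ankrd37, an ankyrin repeat protein, was higher at 4 h in 5 of 6 cultures. Untreated Ankrd37 was at 6.39, 6.86 and 7.06 in wild-type and 6.11, 6.72 and 6.98 in knockout cultures. At 4 h Ankrd37 was at 7.55, 7.34 and 6.84 in wild-type and 7.96, 7.59 and 7.42 in knockout cultures. At 24 h Ankrd37 was at 6.36, 7.43 and 7.94 in wild-type and 6.53, 8.35 and 8.15 in knockout cultures. On slide 1 it was above the detection limit only at 4 h, while on slides 2 and 3 the 24 h level was the highest in each culture. The change was 0.76 ± 0.31 at 4 h and 0.77 ± 0.31 at 24 h (SE, adjusted p = 0.107 and 0.131). These were 0.0517 and 0.0594 with the slide as a block. Ankrd37 was above the limit in 2 wild-type and 1 knockout culture when untreated and in 2 of each genotype at 24 h.

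Bnip3l, a receptor for the removal of mitochondria, moved down at 4 h in 5 of 6 cultures. Untreated Bnip3l was at 9.81, 10.87 and 10.65 in wild-type and 9.54, 10.43 and 10.39 in knockout cultures. At 4 h Bnip3l was at 9.54, 9.97 and 9.74 in wild-type and 9.76, 10.09 and 9.15 in knockout cultures. At 24 h Bnip3l was at 10.07, 10.34 and 10.40 in wild-type and 9.97, 10.70 and 10.43 in knockout cultures. The lowest 4 h level was in knockout culture 6, and the levels at 24 h were back in the untreated range. The 4 h change was -0.57 ± 0.22 (SE, adjusted p = 0.0850 without a block, 0.0159 with the slide and 0.0233 with the replicate block). Against 4 h the 24 h level was 0.61 ± 0.22 higher (adjusted p = 0.0565, and 0.00886 with the slide as a block). Its relative Bnip3 was detected on 0 arrays. Higd1a, a small mitochondrial protein, was detected on only 5 of 18 arrays.

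P4ha1, a subunit of the enzyme that hydroxylates collagen, gave opposite readings from its 2 probes. Untreated P4ha1 was at 7.86, 8.46 and 8.80 in wild-type and 8.64, 8.48 and 8.82 in knockout cultures. At 4 h P4ha1 was at 8.43, 8.64 and 9.18 in wild-type and 8.92, 8.85 and 8.92 in knockout cultures. At 24 h P4ha1 was at 8.34, 8.65 and 9.26 in wild-type and 8.78, 9.07 and 8.64 in knockout cultures. The 4 h level was above untreated in all 6 cultures, and the change of 0.31 ± 0.18 passed only with the replicate block (SE, adjusted p = 0.0396, beside 0.260 without). The second probe, detected on all 18 arrays, changed by -0.41 at 4 h and -0.56 at 24 h, so that P4ha1 has no settled direction. Its relative P4ha2 ran from 6.58 to 9.08 and differed between cultures at 4 h. It was higher by 1.60 in wild-type culture 6, while wild-type 8, wild-type 9 and knockout 4 changed by -0.34, -0.56 and 0.14. In knockout culture 3 it was below the limit untreated and at 8.85 at 4 h, and in knockout culture 6 it was at 7.38 untreated and below the limit at 4 h.

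Vegfa, the vessel growth factor, ran from 9.20 to 11.13. At 4 h it was higher by 0.32 to 0.82 on slides 1 and 2, and changed by -0.54 and -0.01 on slide 3. Over both genotypes the change was 0.32 ± 0.29 (SE, adjusted p = 0.492). A second Vegfa probe, detected on all 18 arrays, changed by 0.66 at 4 h and 0.37 at 24 h, given without a test. Mxi1, which binds Max in competition with Myc, ran from 7.11 to 8.78 and was lowest against untreated at 4 h on slide 3, with changes of -0.97 and -1.26 (overall -0.30 ± 0.26, adjusted p = 0.464). Adm, which encodes the peptide adrenomedullin, was above the limit on 0 arrays. Among all tested members, Pfkl, Ndrg1 and Egln3 had slide means more than 1 apart on the log2 scale. This was 11.1% of the members, beside 3.2% of all tested genes, with the slide 1 mean of Egln3 made of undetected readings.

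The promoters of 4 members are shown because these genes had the largest changes among members with only 1 listed start, a choice made after the values were seen. Each line gives the 250 bases before the transcription start from RefSeq's promoters on GRCm38.p6, 5′ to 3′ on the gene's strand. Capitals mark ACGTG or GCGTG, the core letters of the element that HIF binds, on either strand, so that CACGT in capitals is a match on the other strand. The stretches are chr12:54203875-54204124 (minus strand) for Egln3, chr10:78009808-78010057 (minus) for Pfkl, chr6:124814159-124814408 (minus) for Tpi1 and chrX:106186850-106187099 (plus) for Pgk1.
Egln3: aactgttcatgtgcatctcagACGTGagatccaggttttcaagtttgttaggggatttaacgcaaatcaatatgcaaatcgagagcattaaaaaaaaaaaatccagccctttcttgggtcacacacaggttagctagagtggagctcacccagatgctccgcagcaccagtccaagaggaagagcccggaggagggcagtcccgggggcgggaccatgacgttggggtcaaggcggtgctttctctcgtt
Pfkl: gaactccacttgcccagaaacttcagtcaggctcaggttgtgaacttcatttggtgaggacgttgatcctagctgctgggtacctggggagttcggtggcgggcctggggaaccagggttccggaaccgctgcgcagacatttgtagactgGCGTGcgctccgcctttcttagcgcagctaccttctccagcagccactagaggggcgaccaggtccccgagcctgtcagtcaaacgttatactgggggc
Tpi1: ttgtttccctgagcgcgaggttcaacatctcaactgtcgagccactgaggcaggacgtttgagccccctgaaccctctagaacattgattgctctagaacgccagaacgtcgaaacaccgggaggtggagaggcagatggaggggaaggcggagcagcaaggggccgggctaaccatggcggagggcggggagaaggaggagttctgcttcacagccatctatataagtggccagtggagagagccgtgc
Pgk1: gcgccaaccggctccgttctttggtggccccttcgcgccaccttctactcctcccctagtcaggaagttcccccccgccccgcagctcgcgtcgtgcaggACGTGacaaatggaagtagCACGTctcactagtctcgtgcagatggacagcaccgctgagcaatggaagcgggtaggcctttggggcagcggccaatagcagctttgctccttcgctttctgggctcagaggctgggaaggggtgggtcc

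Pgk1 held 2 ACGTG, Egln3 held 1 ACGTG, Pfkl held 1 GCGTG, and Tpi1, which passed the test at 24 h like Pgk1, held neither. The promoter set used here had an entry for 35 of the 37 members (all but Ndrg1 and Bnip3l). It held 52 windows for them in all, since 12 members had several. ACGTG or GCGTG lay in 42 of the 52 windows, which is 80.8%, beside 38.6% of 32851 windows over all genes. ACGTG, with or without GCGTG, was in 44.2% beside 16.6%. GCGTG, with or without ACGTG, was in 53.8% beside 28.2%. ACGTG is contained in CACGTG, the letters that Myc-type factors bind, which lay in 9.62% of the members' windows beside 6.02% of all. Both motifs contain CG, and the windows of the members held a median of 14 CG pairs, beside 6 over all windows. The members had been chosen for known roles that include regulation by HIF, and the letters do not show binding.

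The rises at 24 h differed between cultures and so did markers of dividing cells. The median log2 change of the 27 members at 24 h was 0.22 in wild-type culture 6, 0.38 in knockout 3, 0.20 in wild-type 8, 0.51 in knockout 4, 0.49 in wild-type 9 and 0.64 in knockout 6. Among the 12 tested genes of the glycolytic chain the median was 0.10 and 0.40 on slide 1, 0.46 and 0.50 on slide 2, and 0.76 and 0.66 on slide 3, wild type first. For the chain, the slide 1 culture was thus the lowest and the slide 3 culture the highest within each genotype.

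Of 15 proliferation markers 13 had a probe and 12 were tested, such as Top2a and Cdk1, and Ccnb2 was above the limit on 0 arrays. Their median change at 24 h was -0.10 in wild-type culture 6, -0.49 in knockout 3, 2.17 in wild-type 8, 0.38 in knockout 4, 1.57 in wild-type 9 and 1.87 in knockout 6. All 12 were above untreated over both genotypes at 24 h and 0 passed the test (median 0.84, with 3 at an unadjusted p under 0.05). From 4 h to 24 h 5 of the 12 rose over both genotypes (median 1.21) and 3 within wild-type cells (median 1.52). The summed raw intensity of the 13 with a probe is not scaled between arrays, so it also carries differences in array brightness. It ran from 6198 to 8350 in untreated wild type, 4974 to 10020 at 4 h and 8041 to 26390 at 24 h. In knockout cells it ran from 4514 to 17490, 4906 to 14180 and 4830 to 28140. The part of proliferation and of the slide in the members' changes was not tested.

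Between 4 h and 24 h, 7 of the 27 members changed, 6 higher (Pfkm, Pfkfb4, Aldoa, Ldha, Pdk1 and Pgm1) and 1 lower (Ndrg1), beside 21% of all tested genes, 10.9% higher and 10% lower. The share in either direction was near this background, with the share higher above it and the share lower below it. In the same comparison 5 of 12 proliferation markers rose, and their part in the members' changes was not tested. The median was 0.35, beside 0.01 over all tested genes, and all 12 tested genes of the glycolytic chain were above 0. The count was 12 with the slide as a block, with 34% of all genes passing, and with the replicate block 13, with 33.1% passing. Without wild-type culture 8 it was 0, with 10 members at an unadjusted p under 0.05 and 5.03% of all genes passing. Without knockout culture 4 it was 2 (8.7% of all genes), and without knockout culture 6 it was 4 (18.1%). Ndrg1 was not called without wild-type culture 6, wild-type culture 8, knockout culture 3 or knockout culture 4. In 8 of the 27 members the 24 h level was above the 4 h level in all 6 cultures, beside 13.5% of all tested genes.

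Within a genotype the 24 h comparison had less precision. In wild-type cells 0 members passed at 24 h (limma, 7 at an unadjusted p under 0.05, 0.692% of all genes passing), with a median of 0.38 and 21 of 27 above 0. In knockout cells 0 passed (13 at an unadjusted p under 0.05, 0.245% of all genes passing), with a median of 0.50 and 24 of 27 above 0. With the slide as a block Pfkl (adjusted p = 0.0340) and Tpi1 (0.0379) passed in wild type, beside 5.24% of all genes. With the replicate block Pfkl had an adjusted p of 0.0502 and Tpi1 of 0.0425, and with the culture as a random block 0.206 and 0.0608. In knockout Pfkl (0.0150) and Pgm1 (0.0285) passed with the slide as a block, beside 3.86% of all genes. Their adjusted p was 0.0248 and 0.0207 with the replicate block, and 0.116 and 0.0363 with the culture as a random block. For 24 h against 4 h, 0 members passed within wild type (6 at an unadjusted p under 0.05, 5.46% of all genes passing) and 0 within knockout (10 at an unadjusted p under 0.05, 0.692% passing).

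Differences by genotype were small against the spread between cultures. Knockout against wild type gave 0 of 27 members past the threshold in untreated cells, at 4 h, at 24 h and over culture means (limma), beside 0.268%, 0.19%, 0.279% and 0.112% of all tested genes. At an unadjusted p under 0.05 the counts were 1, 0, 0 and 0. The 1 was Pfkfb4 in untreated cells, at -0.50 ± 0.23 (SE, adjusted p = 0.846). With the slide as a block 0 members passed in each, and 2, 0, 2 and 6 were at an unadjusted p under 0.05. The share of all tested genes at that unadjusted level was not counted. The responses of the genotypes to 4 h or 24 h differed in 0 members, beside 0% of all genes, and 0 were at an unadjusted p under 0.05.

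Over the mean of the 3 arrays of each culture (3 against 3), the 95% intervals ran from -1.27 to 1.68 on the log2 scale in the 26 members other than Egln3, and all 26 held 0. Egln3 was below the detection limit on 13 of 18 arrays and is given no difference by genotype. For 23 of the 26 the interval lay within 1 log2 unit of 0, so larger genotype differences in those lie outside it. Gapdh was 0.25 ± 0.11 higher in knockout (SE, interval -0.01 to 0.52, adjusted p = 0.820), and 0.06, 0.37 and 0.33 higher on the slides. Hk1 differed by -0.26 ± 0.17, Pkm by 0.29 ± 0.18, Pfkl by 0.29 ± 0.59 and Ndrg1 by -0.28 ± 0.42 (SE), and none of these passed. In 10 of the 27 members the difference had the same sign on all 3 slides, 9 higher in knockout and Pfkfb4 lower, which is 37% beside 44.5% of all tested genes.

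**Figure D4:**
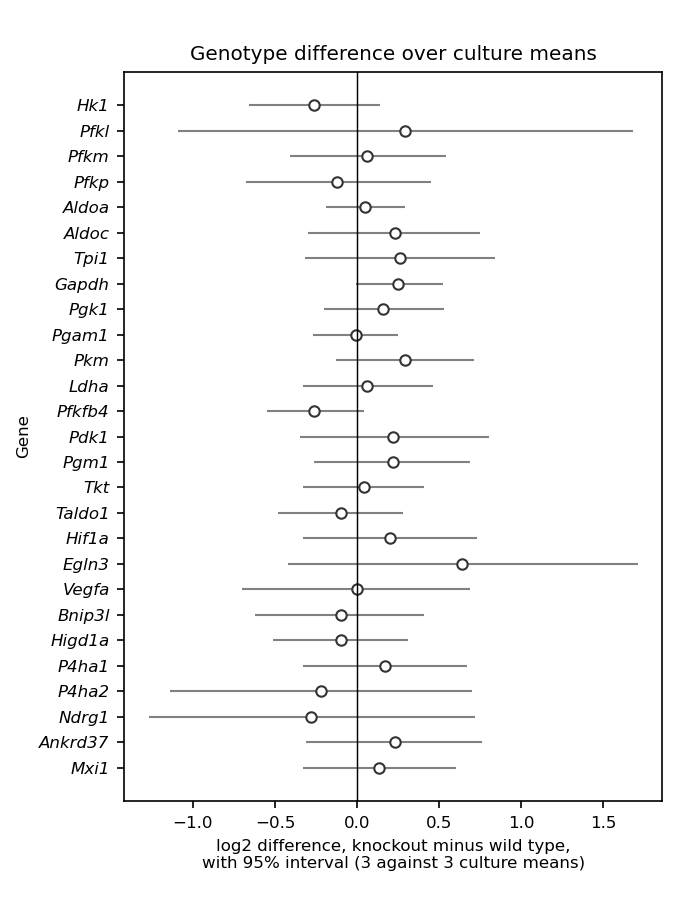
Knockout minus wild type for each of the 27 tested members on the log2 scale, over the means of the 3 arrays of each culture (3 against 3 cultures), with 95% intervals. All 27 intervals include 0. Pfkl and Egln3 have the widest intervals, and the point of Egln3 is made mostly of undetected readings.

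Without averaging, knockout and wild-type arrays did not overlap in 3 of the 27 members in untreated cells, Gapdh and Pkm higher and Ndrg1 lower in knockout, beside 11% of all tested genes. They did not overlap in 1 at 4 h (Gapdh, beside 8.96%) and in 0 at 24 h (beside 12.4%). The untreated share is near that of all genes, and the shares at 4 h and 24 h are below it.

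Other genes of the same pathways were counted from lists, beside the 15.3%, 8% and 21% of all tested genes that passed at 4 h, at 24 h and for 24 h against 4 h. Of 32 further glycolysis genes (transport, isoforms and pyruvate handling) 27 had a probe and 15 were tested. At 4 h 3 of the 15 rose and 1 fell. Eno2, an enolase form, rose by 0.64 ± 0.18, Pdp1, which switches pyruvate dehydrogenase on, by 0.74 ± 0.17, and Gpd2, the mitochondrial glycerol phosphate dehydrogenase, by 0.51 ± 0.14 (SE, adjusted p = 0.0298, 0.0123 and 0.0238). Pdk3, a kinase that switches pyruvate dehydrogenase off, fell by 0.37 (SE 0.11, adjusted p = 0.0395). At 24 h 1 of the 15 rose, the enolase form Eno3 (0.43 ± 0.11, adjusted p = 0.0281, detected on 9 arrays), and Pgp had a change of 0.54 ± 0.21 (adjusted p = 0.11). From 4 h to 24 h Eno3 and Pdk3 rose, and Eno2, Pdp1 and Gpd2 fell. The median of the 15 at 24 h was 0.16, and 13 of the 15 were above 0.

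Of 7 further pentose phosphate genes 6 were tested. Rpe and H6pd fell at 4 h, by 0.91 (SE 0.16, adjusted p = 0.00295) and by 0.42 (SE 0.13, adjusted p = 0.0432). Rpia, which makes ribose phosphate, rose at 24 h by 0.98 ± 0.21 (SE, adjusted p = 0.0106), and Prps2, which activates ribose phosphate, had a change of 0.53 ± 0.17 (adjusted p = 0.0592). From 4 h to 24 h Rpe, Rpia and Prps2 rose. Of 8 glycogen genes 5 were tested and 0 passed against untreated at either time, with 2 at 4 h and 1 at 24 h at an unadjusted p under 0.05. From 4 h to 24 h Pygl, a glycogen phosphorylase, and Gyg, which primes glycogen, rose by 0.81 ± 0.20 and 0.95 ± 0.19 (SE, adjusted p = 0.0111 and 0.00438).

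Of 36 further hypoxia response genes 34 had a probe and 25 were tested, and their median change was 0.01 at 4 h and -0.01 at 24 h. At 4 h 1 rose and 2 fell. Tfrc, the transferrin receptor, rose by 1.03 ± 0.27 (SE, adjusted p = 0.0202), Ccng2 fell by 1.08 (SE 0.24, adjusted p = 0.00885), and Vhl, which leads hydroxylated HIF to degradation, fell by 0.41 (SE 0.13, adjusted p = 0.0428). At 24 h 2 rose and 2 fell: Fam162a by 1.02 ± 0.29 and the cytokine Mif by 1.03 ± 0.27 upward (SE, adjusted p = 0.0411 and 0.0313), and Vhl and the transcription factor Bhlhe40 downward, with changes of -0.62 ± 0.13 and -0.43 ± 0.12 (SE, adjusted p = 0.0105 and 0.0346). From 4 h to 24 h Ddit4, Ccng2 and Fam162a rose and Bhlhe40 fell, and Car9 had a change of 1.11 ± 0.48 (SE, adjusted p = 0.111). Ak4 also passed as higher, but it was above the limit on only 3 arrays, the fewest that the filter accepts. Its call rests mostly on undetected readings and may have been fixed by the filter, so it is not read as a rise. By genotype, 0 genes of these 4 lists passed over culture means, and at an unadjusted p under 0.05 there were 2 each among the glycolysis and hypoxia lists, 1 in the pentose phosphate list and 0 in the glycogen list. The largest of these differences was that of Car9, a membrane carbonic anhydrase, at 1.32 ± 0.53 (SE, adjusted p = 0.814). Next in their lists were Fam162a (0.54), Eno2 (0.42), Slc2a3 (0.35), H6pd (0.33), Prps1 (0.28), Pygb (-0.12) and Gyg (-0.07), as log2 differences of knockout minus wild type.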

How the data were processed

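Total RNA was measured on 18 arrays. Of 2 deposited tables, the raw one gives an intensity on a linear scale for 45281 probes, and its values show neither background subtraction nor scaling across arrays. The other gives the authors' log2 values, and quantile normalisation of the raw log2 intensities came within 0.000556 of each. Per the labels' protocols, biotinylated cRNA was made with an Ambion kit. The scanner and its software are not given in the sources used.

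Background was removed from the intensities with normexp (offset 50) in limma 3.58.1 under R 4.3.3, and log2 values were then quantile normalised. The files hold no detection p-values, so a probe was called detected when at most a share of 0.01 of 1504 probes for olfactory and vomeronasal receptor genes had a signal as high. Probes detected on at least 3 arrays were tested (16669 probes). A member that passes only through the group where it is high had to differ. Symbols came from the platform annotation, and RefSeq gene identifiers changed 0 of them.

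The fit in limma covered all 18 arrays, with a mean for each of the 6 groups, no block and eBayes moderation, two-sided, with Benjamini-Hochberg adjustment over the 8962 genes at 0.05. Genotype was also tested in a separate limma fit on the means of the 6 cultures. The 95% intervals over culture means come from this second fit and the others from the first. None is adjusted for the number of genes. The members, the lists and the tests were chosen with earlier results of these data known. Values on every array are given for members past the threshold in any fit without a block, with the slide or with the replicate block, and for the 5 largest changes at 4 h, at 24 h and between genotypes. Deviations from the group means correlated within a culture in all 18 pairs (0.134 to 0.625), so the culture numbers, which come from the sample titles, were read as pairing arrays. On 1 slide but across cultures the median was 0.328, so culture and slide cannot be told apart fully. The pipeline was tested on simulated data with 200 changed genes. Alternatives were other background and scaling settings, the authors' values, no filter, the mean of a gene's probes, 3 kinds of block, and each culture left out. Leaving out background correction gave the authors' values again. These alternatives are therefore the same analysis, and every tally of alternatives counts it more than once. The number of arrays limits the precision.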

Additional observations from a re-analysis of the deposited data

How the results depend on the processing

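In 205 alternative counts of members past the threshold, 160 were within 1.5 times the main count and 45 were not. Most of the 160 were counts of 0 beside a main count of 0. Where members passed in the main fit, the counts were less stable. Over both genotypes they stayed in 6 of 14 alternatives at 4 h, 5 of 14 at 24 h and 7 of 14 for 24 h against 4 h. In knockout cells at 4 h, 9 of 14 stayed. Among 224 alternative values for called genes 0 changed sign and 70 lost the call. Among 205 alternative medians 2 moved by more than their typical standard error, and 14 had the opposite sign, in 7 comparisons whose main medians were at most 0.13 from 0 (alternatives from -0.05 to 0.17). The 2 that moved were the wild-type 24 h median, at 0.74 with median scaling, and the 24 h median over both genotypes, at 0.28 with no filter on dim probes, where 33 members enter. Causes were not tested, except that leaving out a culture or the filter changes the numbers of arrays or genes by construction. The replicate block, which models the pairing, gave more calls over both genotypes. They were 4, 12 and 13 members at 4 h, at 24 h and for 24 h against 4 h (main counts 2, 6 and 7). Of all tested genes 26.3%, 19.4% and 33.1% passed. Within wild type the replicate block gave 1, 1 and 5 (main 0 each), beside 8.55%, 4.65% and 17.8% of all tested genes. Within knockout it gave 2 at 24 h and 3 for 24 h against 4 h (main 0 each), beside 3.08% and 6.4%. With the slide as a block the counts over both genotypes at 24 h and for 24 h against 4 h were 13 and 12, beside 20.2% and 34%. Within wild type this block gave 1, 2 and 5, beside 9.71%, 5.24% and 18.8% of all tested genes. Within knockout it gave 2 at 24 h and 3 against 4 h, beside 3.86% and 7.19%. With the culture as a random block (correlation 0.292) the corresponding counts over both genotypes were 12 and 13, beside 18.9% and 32.7%. In wild type they were 1 at 4 h, 0 at 24 h and 4 for 24 h against 4 h, beside 9.14%, 4.64% and 17.3%. In knockout they were 1 at 24 h and 2 for 24 h against 4 h, beside 3.44% and 5.82%. With each kind of block the 24 h count over both genotypes includes Egln3, which had to differ. Median scaling gave 1 at 4 h and 4 for 24 h against 4 h over both genotypes, beside 6.49% and 10.8%. It moved the median of all genes to 0.08 at 4 h and 0.19 at 24 h, beside a median of 0.75 for the members at 24 h, and left 26 of 27 members above 0 at 24 h and 21 at 4 h. No filter gave 1 at 4 h and 3 at 24 h over both genotypes, and 0 at 4 h in knockout, beside 5.93%, 3.13% and 0.194%. With a culture left out the counts ran from 1 to 2 at 4 h, 0 to 4 at 24 h and 0 to 9 for 24 h against 4 h over both genotypes. The 4 and the 9 arose without knockout culture 3, and each includes Egln3. The shares of all tested genes ran from 2% to 16.9%, 2.5% to 4.64% and 5.03% to 21.8%. The counts ran from 0 to 2 at 4 h and 0 to 1 for 24 h against 4 h in wild type, and from 0 to 1 at 4 h in knockout. The shares of all tested genes there ran from 0.0112% to 3.59%, 0.0112% to 7.54% and 0.19% to 1.72%. The 2 wild-type calls at 4 h arose without wild-type culture 9, and the 1 for 24 h against 4 h as well. Genotype and interaction counts were 0 in every alternative run. Of 16 further kept probes of 14 members, 12 had the sign of the chosen probe at 4 h and 12 at 24 h. Signals near the detection limit bound what can be said of Egln3, Pdk1, Ankrd37, Higd1a and P4ha2.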
